A study of Mus musculus with 41 samples.

Results

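The CpGs described here lie in 8 short amplicons placed in or near enhancers of mouse bone marrow-derived macrophages (BMDMs), whose 5mC + 5hmC level was measured before and after stimulation. They comprise every CpG with at least 100 reads in each of the 6 BMDM samples, outside the Il4 locus, in loci where at most 2% of the reads at cytosines outside CpGs still showed C. This gave 40 CpGs, of 83 with that depth in the BMDM samples and of 157 with that depth in any of the 33 bisulfite samples of the series. The choice used depth and conversion, and not the level of any CpG.

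The series asked how DNA demethylation proceeds in dividing T cells and in macrophages that do not divide, by sequencing bisulfite-treated amplicons. It holds 41 samples, of which the 6 used here are from wild type C57BL/6 BMDMs. Mice were 8 to 16 weeks old. Bone marrow cells grew on 10 cm plates for 4 days in 20% FBS and 30% L929-conditioned medium as the source of M-CSF, the growth factor that drives macrophage differentiation. M-CSF was then added at 20 ng/ml for 2 days, and the adherent cells were replated overnight. They were left unstimulated (0 h) or received KLA (Kdo2-lipid A, the lipid part of bacterial lipopolysaccharide that binds TLR4) for 6 or 24 h. The labels and the methods of the study name the stimulus KLA, and its results speak of LPS. The comparison asks whether enhancers lose 5mC + 5hmC on stimulation in cells that do not replicate their DNA. Each time had 2 samples, labelled as replicates 1 and 2, whose deposited names point to a single library. They are therefore treated as run 1 and run 2 of that library. Each time was thus taken as 1 bisulfite library. The names at 24 h also carry a further designation, described with the results flagged for a closer look. The number of mice behind a library was not given in the sources used here. A difference between times had no biological replicate check. No marker of macrophage identity can be read from these amplicons.

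Methylation of cytosine in CpGs is copied to the new strand when DNA replicates, and enhancers in use usually carry less of it than the surrounding DNA. TET enzymes oxidise 5mC to 5hmC and further to 5fC and 5caC, which can be lost by dilution over cell divisions or cut out by the glycosylase TDG and replaced with cytosine. Latent enhancers lack the chromatin marks of enhancers in resting macrophages and gain them on stimulation through TLR4, the receptor of lipopolysaccharide and KLA. Bisulfite sequencing reads 5mC and 5hmC alike as C, and C, 5fC and 5caC as T, so that a level here is the sum of 5mC and 5hmC, and a shift from one to the other leaves it unchanged.

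All 8 amplicons read the plus strand of mm9, and each of their 40 CpGs passed the depth limit. The median depth per CpG was 2517 and 3120.5 reads in the runs at 0 h, 3752 and 2440 at 6 h, and 3852.5 and 2932 at 24 h. The lowest depth was 278 reads, at Alcam CpG2 in run 2 at 6 h, and the highest was 7564, in Ptgs2. The 95% Wilson interval of a level had a median width of 2.16 to 2.63 points per run, and the widest, in Alcam, spanned 8.05 points. Reads copied by PCR and carrying no molecular barcode do not each stand for a separate molecule, so these intervals cover counting error only. At the 418 cytosines outside CpGs with the same depth, 0.166% to 0.188% of reads showed C in each run.

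Before stimulation the CpGs were mostly methylated, with 26 of 40 at 80% or more, 12 between 20% and 80%, and 2 below 20%. The mean over the 40 CpGs was 76.8% and 76.6% in the runs at 0 h, 77.2% and 77.5% at 6 h, and 76.4% and 76.2% at 24 h. Over all CpGs the times thus lay about a point apart, and a mean weighted by reads turned the order of 24 h against the earlier times. The CpGs lay between 83.2% and 96.6% in every run at Ptgs2, between 85.3% and 97.2% at Alcam and between 88.6% and 94.9% at Mdfic. Batf, Il1b, Il6 and Ptges held CpGs of intermediate or low level, as the plot of levels by CpG shows.

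**Figure D1:**
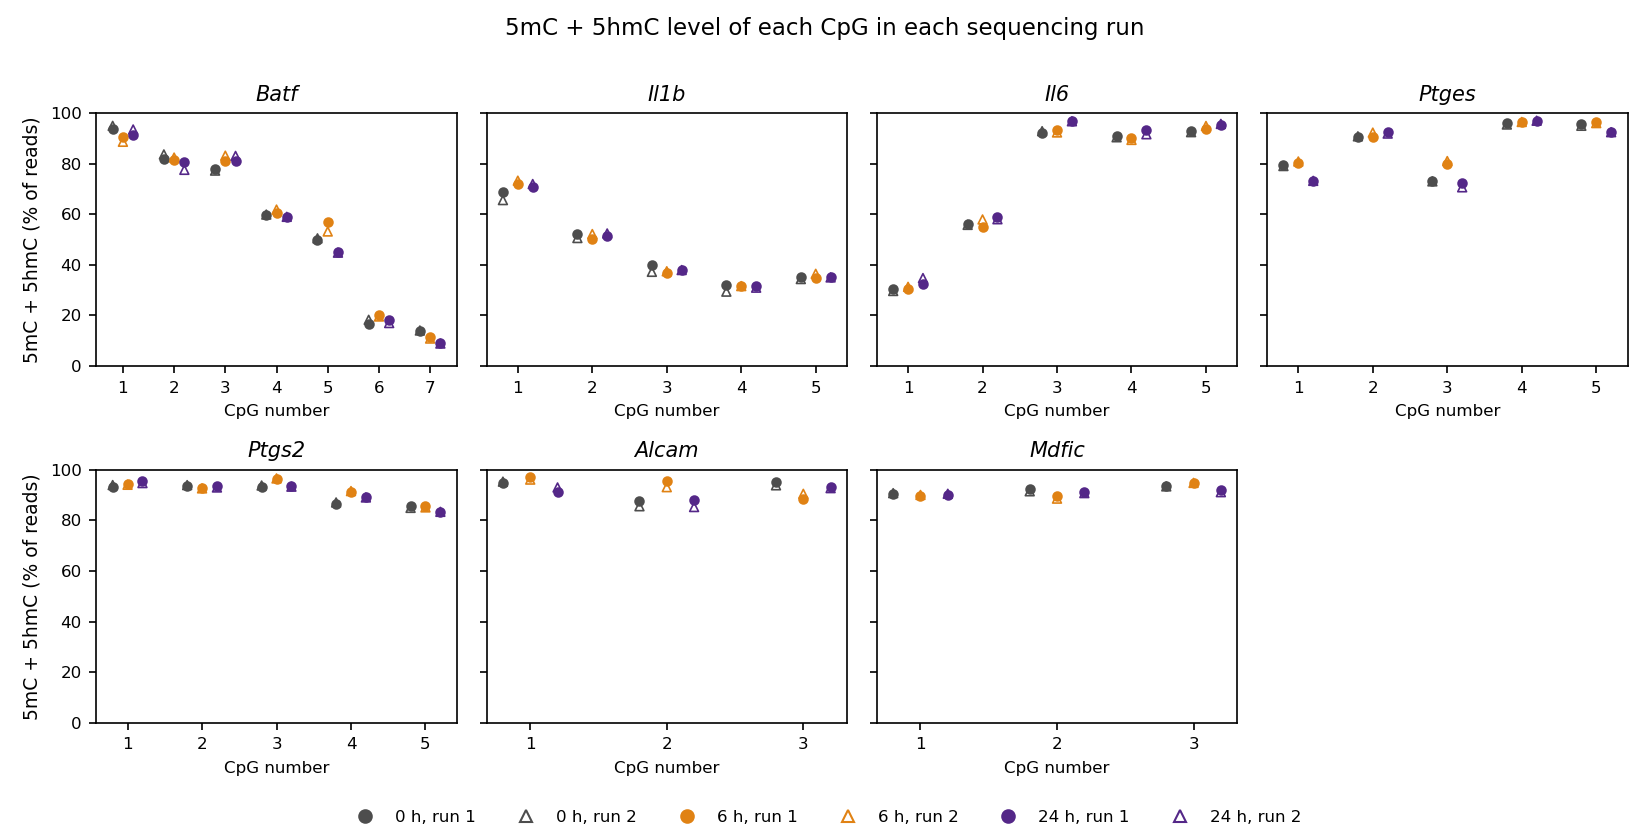
The level of 5mC + 5hmC at each CpG (y axis, % of reads with C) is plotted against the CpG's number along the plus strand for 7 of the 8 amplicons, with colours for 0, 6 and 24 h, filled circles for run 1 and open triangles for run 2. Levels span 8.89% to 97.2%, and at Batf, Il1b and Il6 the CpGs of an amplicon lie further apart than the times at any of them.

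The Batf amplicon (chr12:87007500-87007779) lies between genes, 19.8 kb upstream of Batf, which encodes a transcription factor of the AP-1 family. Its 7 CpGs formed the widest gradient of the set, within 200 bases. CpG1, the highest, had 93.7% and 95% in the runs at 0 h, 90.7% and 88.7% at 6 h, and 91.6% and 93.6% at 24 h. CpG4 in the middle had 59.8% and 59.9% at 0 h, 60.7% and 61.9% at 6 h, and 58.9% and 59.0% at 24 h. CpG7, the lowest of the 40, had 13.7% and 14.0% at 0 h, 11.4% and 10.9% at 6 h, and 9.21% and 8.89% at 24 h, so that neither run at a later time reached the level of a run at an earlier one. The mean over the amplicon was 56.6% at 0 h, 57.3% at 6 h and 54.9% at 24 h. The sequence is shown because the level is high at its start and low at its end, although CpG3 lay above CpG2 at 6 h and 24 h in the library levels. Each CpG is in capitals, in the order CpG1 to CpG7.
Batf amplicon (chr12:87007500-87007779, mm9, plus strand): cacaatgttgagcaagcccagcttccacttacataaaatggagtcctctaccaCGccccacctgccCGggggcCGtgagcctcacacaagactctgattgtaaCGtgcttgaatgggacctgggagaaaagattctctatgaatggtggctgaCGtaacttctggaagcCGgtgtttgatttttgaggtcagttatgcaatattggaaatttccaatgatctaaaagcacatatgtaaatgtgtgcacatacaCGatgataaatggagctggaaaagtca

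Batf CpG5 was the one CpG of the 40 that was called between any pair of times. It had 49.9% and 50.5% in the runs at 0 h, 57.0% and 53.2% at 6 h, and 44.9% and 44.8% at 24 h. Both runs at 6 h were thus above those at 0 h, and both at 24 h below them. From 6 h to 24 h the level fell by 10.2 points (95% Newcombe interval of the summed reads -14.2 to -7.54; adjusted p = 9.09e-10, Fisher's exact test, two-sided). The difference was -12.1 points in run 1 and -8.39 in run 2, so that it reached the minimum of 10 points in run 1 and not in run 2. With run 2 alone it was not called, and Ptges CpG3 was called in its place. The difference of 24 h from 0 h at Batf CpG5 was -5.33 points (exact test, adjusted p = 0.00518), short of the minimum.

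The Il1b amplicon (chr2:129236157-129236409) lies between genes, 39.3 kb upstream of Il1b, which encodes the inflammatory cytokine IL-1β. Its 5 CpGs fell in level along the plus strand as far as CpG4. CpG1 had 68.7% and 65.7% at 0 h, 72.0% and 73.3% at 6 h, and 71.0% and 72.0% at 24 h, and CpG4 had 32.2% and 29.4% at 0 h, 31.6% and 31.6% at 6 h, and 31.6% and 31% at 24 h. At CpG1 all 4 runs of stimulated cells were above both runs at 0 h, by 5.48 points at 6 h and 4.33 at 24 h in the library levels, with a gap of 3.03 points between the runs at 0 h. At CpG4 the runs of the times overlapped. Capitals again mark CpG1 to CpG5 in order.
Il1b amplicon (chr2:129236157-129236409, mm9, plus strand): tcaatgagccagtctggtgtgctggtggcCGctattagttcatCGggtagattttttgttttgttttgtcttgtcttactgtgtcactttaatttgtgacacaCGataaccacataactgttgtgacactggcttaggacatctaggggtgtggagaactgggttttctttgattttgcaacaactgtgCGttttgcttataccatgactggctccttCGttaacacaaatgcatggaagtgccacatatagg

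At Il6, the gene of the cytokine IL-6, the amplicon (chr5:30299463-30299777) lies 39.9 kb upstream, also between genes. Here the gradient ran the other way, with the lowest level at the 5′ end of the plus strand and high levels beyond. CpG1 had 30.3% and 29.7% at 0 h, 30.5% and 31.3% at 6 h, and 32.4% and 34.8% at 24 h. CpG2, 121 bases on, had 56.1% and 55.8%, then 55.1% and 58.0%, then 58.9% and 58.1%. The other 3 CpGs lay between 89.5% and 96.8% in every run, and CpG5 was the highest by its mean over the times, with 93.2% and 92.5% at 0 h, 93.7% and 95% at 6 h, and 95.4% and 95.8% at 24 h. Il6 was the one amplicon in which all CpGs were higher at 24 h than at 0 h, by 1.61 to 4.29 points. Both runs were above at 5 of 5. Over all 40 CpGs the runs at 24 h were entirely above those at 0 h at 13 and below at 18. Against 6 h the same held for Il6 by 1.25 to 4.00 points, with 14 of the 40 above and 17 below. The mean of Il6 was 72.5% at 0 h, 72.9% at 6 h and 75.4% at 24 h, and no CpG of it was called. The surroundings of the CpGs of lower level are given, with the CpG in capitals.
Il6 CpG1 (chr5:30299468-30299509, mm9, plus strand): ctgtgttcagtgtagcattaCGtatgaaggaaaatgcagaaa
Il6 CpG2 (chr5:30299589-30299630, mm9, plus strand): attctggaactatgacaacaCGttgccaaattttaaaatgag

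Ptgs2 and Ptges encode cyclooxygenase 2 and prostaglandin E synthase, which act in turn to make prostaglandin E from arachidonic acid. The Ptges amplicon (chr2:30768797-30769070) lies in an intron of the gene as annotated, and the Ptgs2 amplicon (chr1:152050299-152050616) between genes, 95.2 kb downstream of Ptgs2. Ptges CpG3, the lowest there, had 73.2% and 73.1% at 0 h, 79.9% and 81.1% at 6 h, and 72.4% and 70.7% at 24 h. It was 7.36 points higher at 6 h than at 0 h (exact test, adjusted p = 1.49e-25), and the difference of 24 h from 6 h was -8.95 points (exact test, adjusted p = 2.43e-33), both short of the minimum. CpG2, 6 bases away in the same amplicon, had 90.6% and 90.9%, then 90.7% and 92.4%, then 92.7% and 92%. CpG1 gave the largest decrease at 24 h against 0 h, with 79.7% and 79.1% at 0 h, 80.2% and 80.9% at 6 h, and 73.4% and 73.3% at 24 h, a difference of -6.11 points (interval -7.31 to -4.84). CpG4 was the highest of the amplicon, at 95.9%, 96.5% and 97% in the libraries of 0, 6 and 24 h.

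Ptges was also the one amplicon in which every CpG was higher at 6 h than at 0 h, by 0.584 to 7.36 points. The runs at 6 h were entirely above those at 0 h at 4 of 5. Over all 40 CpGs they were entirely above at 19 and below at 12, and thus apart at 31 (77.5%). The mean of Ptges was 86.9% at 0 h, 89.1% at 6 h and 85.4% at 24 h. At Ptgs2 the mean was 90.6%, 92% and 90.9% in the same order. Its highest CpG by the mean over the times was CpG3, with 93.2% and 93.8% at 0 h, 96.4% and 96.6% at 6 h, and 93.5% and 93.4% at 24 h, and its lowest was CpG5, with 85.5% and 85.0%, then 85.6% and 85.2%, then 83.2% and 83.4%. Neither gene's amplicon held a called CpG. The Ptges CpGs whose levels differed most between times are shown with their flanks, the CpG in capitals.
Ptges CpG1 (chr2:30768870-30768911, mm9, plus strand): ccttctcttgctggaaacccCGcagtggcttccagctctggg
Ptges CpG3 (chr2:30768939-30768980, mm9, plus strand): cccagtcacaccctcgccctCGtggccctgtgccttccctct

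Alcam encodes a cell adhesion molecule, and its amplicon (chr16:52425818-52426154) lies in an intron of the gene. It had the fewest reads and both extremes of the comparison of 6 h with 0 h. CpG2 had 87.8% and 85.6% at 0 h, 95.7% and 93.2% at 6 h, and 88.1% and 85.3% at 24 h, from 278 to 734 reads. The library level was 7.76 points higher at 6 h than at 0 h (interval 5.23 to 11.1, exact test, adjusted p = 1.04e-07). At 24 h its difference from 0 h was 0.0413 points (interval -2.79 to 3.61). CpG3 had 95.1% and 93.9% at 0 h, 88.6% and 90.5% at 6 h, and 93% and 92.8% at 24 h, which put 6 h at -4.95 points from 0 h (interval -7.60 to -3.36). CpG1, the highest by its mean over the times, had 95%, 96.7% and 92.1% in the libraries of 0, 6 and 24 h. Capitals mark the CpG.
Alcam CpG2 (chr16:52425948-52425989, mm9, plus strand): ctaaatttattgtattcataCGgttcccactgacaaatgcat
Alcam CpG3 (chr16:52426082-52426123, mm9, plus strand): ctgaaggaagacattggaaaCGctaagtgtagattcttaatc

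The Mdfic amplicon (chr6:15633778-15634002) lies between genes, 36.7 kb upstream of Mdfic, which encodes a MyoD family inhibitor domain protein. CpG1, the lowest by its mean over the times, had 90.6%, 89.9% and 90.2% in the libraries of 0, 6 and 24 h, and CpG3, the highest, had 93.5%, 94.9% and 91.6%. The amplicon's mean was 92% at 0 h, 91.3% at 6 h and 90.9% at 24 h. Mdfic was the one amplicon in which all CpGs were lower at 24 h than at 0 h, with differences of -0.340 to -1.93 points. The runs at 24 h were entirely below those at 0 h at 2 of its 3 CpGs. Over all 40 CpGs they were entirely below at 18 and above at 13, and thus apart at 31 (77.5%). No CpG of Mdfic was called.

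Taking all CpGs, each pair of times was compared with Fisher's exact test, two-sided, on the reads summed over the runs, with Benjamini-Hochberg adjustment of the p-values across all 40. A CpG was called when its adjusted p was under 0.05 and its library levels differed by at least 10 points. At 6 h against 0 h, 0 of 40 CpGs were called (0%), and at 24 h against 0 h again 0 of 40 (0%). At 24 h against 6 h, 1 of 40 was called (2.5%), Batf CpG5. Since every CpG tested belongs to the set described, these percentages are also those of the members. The test compares the libraries and not the conditions.

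The intervals of the differences, which cover counting error only, were mostly within 10 points. At 24 h against 0 h the intervals of all 40 differences lay within 10 points, reaching from -8.71 to 7.06. At 6 h against 0 h 39 of 40 did, the exception being Alcam CpG2, and at 24 h against 6 h 37 of 40. Without a minimum size, an adjusted p under 0.05 by the exact test was reached at 18 of 40 CpGs (45%) for 6 h against 0 h, at 28 (70%) for 24 h against 0 h and at 25 (62.5%) for 24 h against 6 h. The median size of the difference was 1.45, 1.93 and 2.29 points in these comparisons.

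Differences between the libraries were small but larger than those between runs. Within a library the median gap between runs was 0.639 points at 0 h, 0.811 at 6 h and 0.615 at 24 h, and the largest was 3.81 points, at Batf CpG5 at 6 h. No CpG was called between the runs of a library, 0 of 40 (0%) at each time. The range of the 3 library levels exceeded the largest gap between runs at 33 of 40 CpGs. In each of the 3 comparisons of times, the runs of one time lay entirely above or below those of the other at 31 of 40 CpGs (77.5%). The runs of a time share a library, so this spread leaves out what varies between cultures, conversions and amplifications.

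The directions were mixed. At 6 h against 0 h 25 CpGs were higher and 15 lower, with a median of 0.687 points. At 24 h against 0 h 18 were higher and 22 lower, with a median of -0.350 points. At 24 h against 6 h 18 were higher and 22 lower, with a median of -0.425 points. CpGs that were higher and CpGs that were lower stood side by side in 7 of the 8 amplicons at 6 h against 0 h, in 6 at 24 h against 0 h and in 7 at 24 h against 6 h. The comparisons share libraries and are given side by side only.

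**Figure D2:**
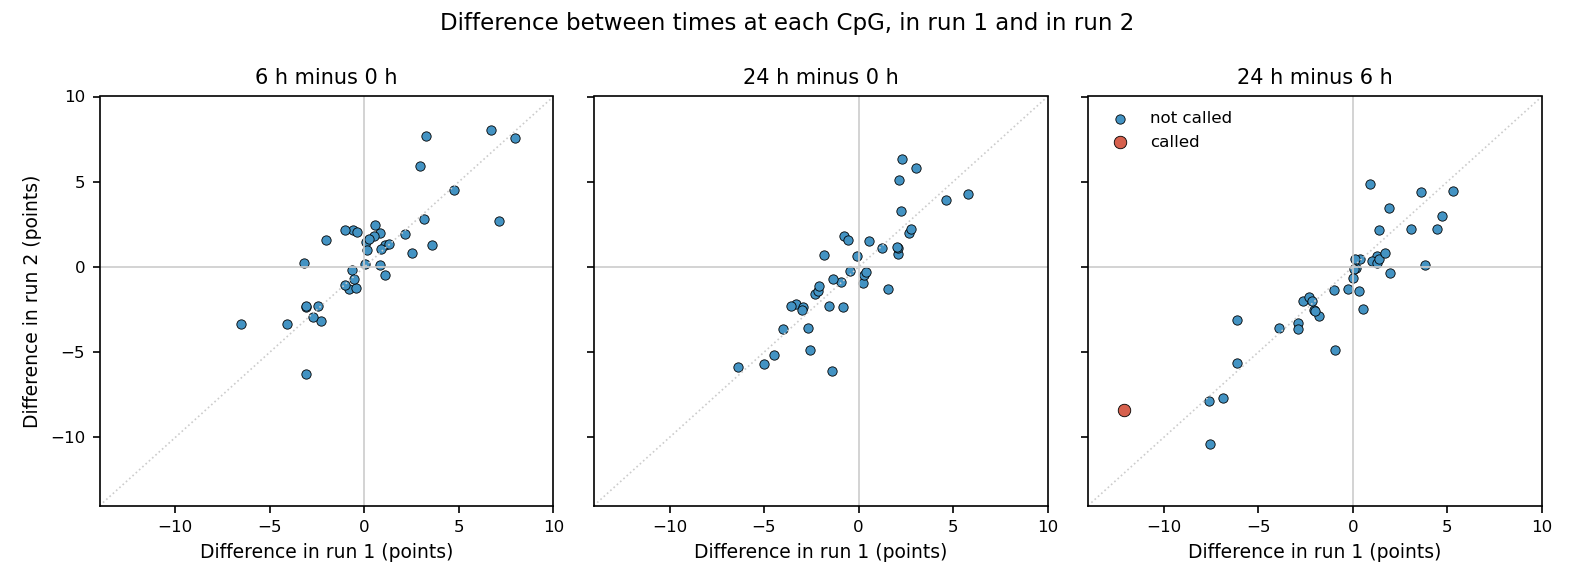
The difference between times at each of the 40 CpGs in run 1 (x axis, points) is plotted against that in run 2 (y axis, points), with a panel for each pair of times and a dotted line where both runs are equal. The called CpG, Batf CpG5 at 24 h minus 6 h, lies at -12.1 and -8.39, and the points on both sides of 0 lie near the line.

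Cytosines outside CpGs in the same amplicons give the background of the assay. Of 418 such cytosines none had more than 6.38% C in a run, so that 0 calls (0%) in each comparison of times followed from the minimum of 10 points. Without a minimum, the exact test gave an adjusted p under 0.05 at 54 of 418 for 6 h against 0 h, 38 for 24 h against 0 h and 44 for 24 h against 6 h. The largest difference was 4.70 points, at 24 h against 0 h. Il4, amplified in T cells, had at most 16 reads at a cytosine in the BMDM samples. Of the 27 bisulfite samples of T cells, 2 had reads at the BMDM amplicons, with at most 12 at a cytosine, so that levels there could not be compared between the cell types.

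A further 43 CpGs with the required depth lay in amplicons of Klf2, Foxo1, Lef1 and Ccr7, which were set aside because 99.9% of their reads at cytosines outside CpGs showed C at 24 h. At 0 and 6 h this share was at most 1.12% in any run, and the same exact test adjusted over the 43 called 4 (9.3%) at 6 h against 0 h, all in Klf2 and all lower, against 0 of the 40 described here. Whether the sets differ was not tested, since CpGs of an amplicon share their reads. The mean of the 20 Klf2 CpGs was 25.3% at 0 h and 18.7% at 6 h. At Ccr7, Foxo1 and Lef1 the mean difference of 6 h from 0 h was -3.17, -2.83 and -2.81 points. Over the 40 CpGs described here it was 0.606 points.

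Motifs were searched on both strands of the 8 amplicons by their letters alone. The start of an NF-κB site, GGGAATT, was found in 1 of 8 amplicons, Alcam, at chr16:52426018-52426024 and, on the minus strand, at chr16:52426068-52426074, between CpG2 and CpG3. It occurred in 4.22% of the 8604800 genome tiles of 297 bases, the median amplicon length. The AP-1 motif TGANTCA was found in 1 of 8, Ptges (8.75% of tiles), and the PU.1 motif GAGGAAG in 0 of 8 (8.75% of tiles). The C/EBP motif TTGCNNAA was found in 4 of 8, Batf, Ptges, Il1b and Il6 (13.6% of tiles). These 4 amplicons are also the ones with CpGs of intermediate or low level, which was noticed after the levels were seen and was not tested. In Il6 the match directly follows CpG2, and no match of any motif contained a CpG.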

How the data were processed

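Per the submitters' processing notes, the authors mapped reads to mm9 with BSMAP. They deposited, for each cytosine, the count of reads with C and the count with C or T, and a ratio of C with its interval, which were not used. A level was 100 times the C count over the C or T count, and a library's level the mean of its runs. Loci were runs of covered cytosines with gaps under 500 bases, named by the study's primers matched to converted mm9 sequence, or by gene. Genes came from GENCODE M1. Bisulfite samples of T cells served only for the count of stray reads and of all CpGs.

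CpGs named are those called, the largest increase and decrease of each comparison, and the highest and lowest of each locus by the mean over the times. The CpGs of 1 amplicon are not reported here by name, but counts and means over the 40 include them. Batf CpG4, Ptges CpG2 and Il6 CpG2 lie outside that rule and were chosen after their values were seen. Members and lists were chosen with earlier results of these data known. Alternatives were other depth and size limits, single runs, the run as a block, limma, summed reads, a conversion correction and read weights. Calling was tested on simulated data, with each read drawn independently. Variation between libraries and reads copied by PCR were not simulated. Tools were limma 3.58.1 in R 4.3.3, and scipy 1.17.1, pysam 0.24.0, numpy 2.4.6, matplotlib 3.10.9 and pandas 2.3.3 in Python 3.11.15.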

Additional observations from a re-analysis of the deposited data

Results flagged for a closer look

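At 24 h, reads in 4 loci outside the comparisons showed C at nearly every cytosine, far above the level of the same loci at the other times. At cytosines outside CpGs, reads with C made up 99.9% at Klf2, 99.9% at Foxo1, 99.9% at Lef1 and 99.9% at Ccr7 as the mean of the runs at 24 h. The same loci had 0.197%, 0.304%, 0.228% and 0.572% in unstimulated cells and 0.183%, 0.371%, 0.216% and 0.712% at 6 h. The 8 amplicons described here stayed between 0.111% and 0.301% in every run at every time, 24 h included. The deposited names of the 24 h samples carry, beside the designation of a bisulfite library, a further one (PB) that those of 0 and 6 h lack and that the series also uses for samples treated with pyridine borane instead of bisulfite. Whether these reads come from such a library was not tested, so their share of C cannot be read as methylation.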

How the results depend on the processing

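With 0 CpGs called at 6 h and at 24 h against 0 h and 1 at 24 h against 6 h, the counts were equal with a minimum of 20 or of 500 reads (the latter without the 3 CpGs of Alcam), with levels from summed reads, with the correction for unconverted cytosines, with the 2% limit in each sample and with limma on the runs as replicates. The limit of 20 reads and the 2% limit in each sample left the same 40 CpGs. Limma and the run as a block changed the p-values and not the differences. The largest differences from 0 h were 7.76 points at 6 h and -6.11 at 24 h. Under these settings the 0 calls against 0 h therefore followed from the minimum of 10 points. The size limit moved the counts. With 5 points the counts were 3, 3 and 5, with no minimum 18, 28 and 25, and with 20 points 0 in each comparison. Adding the loci set aside, chosen after seeing the data, gave 4 at 6 h against 0 h.

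A single run also gave 0, 0 and 1, but not the same CpG. Without run 1, Batf CpG5 fell by 8.39 points (Fisher's exact test, adjusted p = 0.00979) and was not called, and Ptges CpG3 was called in its place; without run 2, Batf CpG5 was called. As a replicate block, the run number gave 0, 0 and 1 with the Cochran-Mantel-Haenszel test, the 1 being Batf CpG5. For runs with the same number, the correlation of their deviations over the 40 CpGs was -0.174, -0.107 and 0.0858 for the 3 pairs of times. Stray reads at Il4 did go with the number. They covered 580, 536 and 367 cytosines in run 1 at 0, 6 and 24 h. In run 2 they covered 0, 146 and 0. At 0 and 6 h, run 1 also had more C outside CpGs than run 2 in the 4 loci set aside. At Ccr7 this was 0.966% against 0.179% at 0 h, and 1.12% against 0.301% at 6 h. What else such runs share was not tested.

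Between runs 0 CpGs were called with 20 or 500 reads or with 5 points. This followed from the size limits, since no gap between runs reached 5 points. With no minimum size, the exact test gave 1 CpG an adjusted p under 0.05 between the runs at 0 h, and 0 at 6 h and 24 h. Outside CpGs, no minimum gave 54, 38 and 44 of 418 cytosines. Weighting by reads moved 15 of 27 mean levels by more than the spread between runs, by up to 2.40 points, and 6 of 27 mean differences, of which 2 changed sign: over all CpGs, 24 h minus 0 h went from -0.407 to 1.12 points and 24 h minus 6 h from -1.01 to 0.395. Single runs changed the sign of up to 5 of 27 mean differences, none above 1.08 points in size. Depth limits the levels of Alcam and Batf most: the widest interval of a level, 8.05 points, was in Alcam, and in the other 5 runs the widest was in Batf.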
